A study of Homo sapiens with 12 samples.

Results

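DEAD box and DEAH box helicases are enzymes that use ATP to unwind short RNA duplexes or to strip proteins from RNA, and they are named after the amino acids of a conserved motif in the part that binds ATP. Different members act at each step of an RNA's life, from splicing and ribosome assembly in the nucleus to export, translation and decay in the cytoplasm, and a few sense viral RNA. The genes described here were chosen by name alone, as every entry of the deposited expression table called DDX or DHX followed by a number and at most 1 letter. The rule found 57 of the 26125 entries, and 48 of them were tested, since they were among the 12928 entries averaging 1 FPKM or more over the 12 libraries (FPKM counts fragments relative to transcript length and library size). The rule also takes DDX12P, a pseudogene copy of DDX11, and DDX26B, which RefSeq now lists as INTS6L.

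RNA was sequenced from Caco-2 cells, an epithelial line from a colon tumour whose cells come to resemble enterocytes, grown for 21 days on transwell inserts, and all 4 groups were held in a buffered salt solution. The combined group received ochratoxin A (OTA, a mould toxin of food) at 15 µmol/L and the bacterium Bacillus subtilis CW14 in the apical chamber. The OTA group received the toxin at 15 µmol/L, the CW14 group the bacterium, and the control group neither, with 3 libraries in each. The labels give no exposure time and do not say that the libraries came from separate cultures, so p-values measure the spread between these libraries, which may be technical. The series title names CW14 as a probiotic and concerns its effect on the toxicity of OTA.

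Caco-2 is 1 cancer line, so the values describe that line. Enterocyte markers reached a mean of at least 1 FPKM in 10 of 11. The exception was SI (sucrase-isomaltase), with group means of 0.0621 to 0.0904 FPKM. Of 9 stromal, immune and endothelial markers, 6 were below that level, and PTPRC and KDR were listed at 0 in all libraries. These 9 summed to 54.3 to 80.3 FPKM in combined, 105 to 133 in OTA, 66.1 to 85.6 in CW14 and 75.5 to 97.8 in control libraries. Most of that was CD68, a macrophage marker, at 61.8 ± 11.8 FPKM in the combined group and 116 ± 13.5 FPKM in OTA (SD, n = 3 each, limma adjusted p = 0.0072). The enterocyte markers summed to 9476 to 25595 FPKM in combined, 9253 to 10141 in OTA, 7222 to 7705 in CW14 and 8619 to 9193 in control libraries. The highest sum was that of combined replicate 3 and was mostly APOA1, at 19185 FPKM there. APOA1 had 7219 and 5364 FPKM in combined replicates 1 and 2. With OTA against control VIL1 was higher and KRT18 and KRT20 lower, and in the combined group against OTA CDX2 was higher and CDH17 and EPCAM lower. The part of these marker differences in the helicase results was not tested. A relative depth was taken from the most frequent ratio of values under 0.3 FPKM between control replicate 1 and each library. It ran from 0.470 in combined replicate 3 to 1.60 in OTA replicate 1, against 1 in control replicate 1. Combined replicate 3 stood apart, with a residual SD of 0.588 on the log2 scale against 0.305 to 0.424 in the other 11 libraries. Of the 48 tested helicase genes, 18 had their highest value and 9 their lowest in that library. It is in the fit of every comparison through the shared estimate of spread, so the helicase calls that change without it are given too. Calls of markers and of genes that work with the helicases are given only with all libraries in the fit. In bulk RNA, a lower level in every cell and loss of the transcript from some cells cannot be told apart.

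The 48 tested genes had means of 2.52 to 200.2 FPKM over the 12 libraries, with a median of 10.7 FPKM. FPKM is a level per transcript length, so levels can be compared between genes. DDX21, DDX17, DDX5 and DDX3X had means over 100 FPKM, and 23 genes had means under 10 FPKM. The next most abundant were DDX24, DDX6, DDX42 and DDX47, at means of 44.1, 41.6, 41.1 and 34.2 FPKM. The 9 entries below the filter had means of at most 0.272 FPKM and were not tested. They were the germ line helicases DDX4, DDX25, DDX43 and DDX53, the antiviral genes DHX58, DDX60 and DDX60L, and DDX3Y and DDX26B. DDX25 and DDX53 were listed at 0 in all 12 libraries. For 15 of the 48 tested genes the deposited locus also holds other entries, so fragments of overlapping genes can be mixed, as it does for DDX5 (2 other entries) and for DDX31, DDX59 and DHX32 (1 each).

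Differences were tested with limma on log2(FPKM + 1), with p-values adjusted by Benjamini-Hochberg over all 12928 genes, and genes with an adjusted p below 0.05 were called. Any difference among the 4 groups was called in 18 of the 48 helicase genes, or 37.5%, and in 37.5% of all genes tested. Without combined replicate 3 it was called in 19 of the 48 and in 50.4% of all genes. OTA against control, which asks what the toxin alone did, called 10 helicase genes, 1 higher and 9 lower. That is 20.8% of the 48, against 17.7% of all genes tested. Over all genes, 4.82% were higher and 12.9% lower. The median log2 difference of the 48 was -0.21, against 0.03 over all genes. All 3 OTA libraries lay above the control libraries for 4 of the 48 and below them for 20, against 24.4% and 25.7% of all genes. The count was 6 without control replicate 2 or control replicate 3, 5 without OTA replicate 3 and 16 without combined replicate 3, where 33.8% of all genes were called. The 6 gained without combined replicate 3 were DDX3X, DDX39B, DDX51, DDX55, DDX59 and DHX36. With the OTA and control libraries alone in the fit the count was 15, 2 higher and 13 lower. No share of all genes is given beside the 6, 5 and 15, so these counts are not a result about the helicases. Median-centring, which raised the median of all genes by 0.105, gave 2 higher and 7 lower. Quantile normalization and upper-quartile scaling each gave 1 higher and 7 lower. Over all genes the main fit called 623 higher and 1665 lower. Median-centring called 1153 higher and 1342 lower over all genes, quantile normalization 976 and 1454, and upper-quartile scaling 1016 and 1362.

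**Figure D1:**
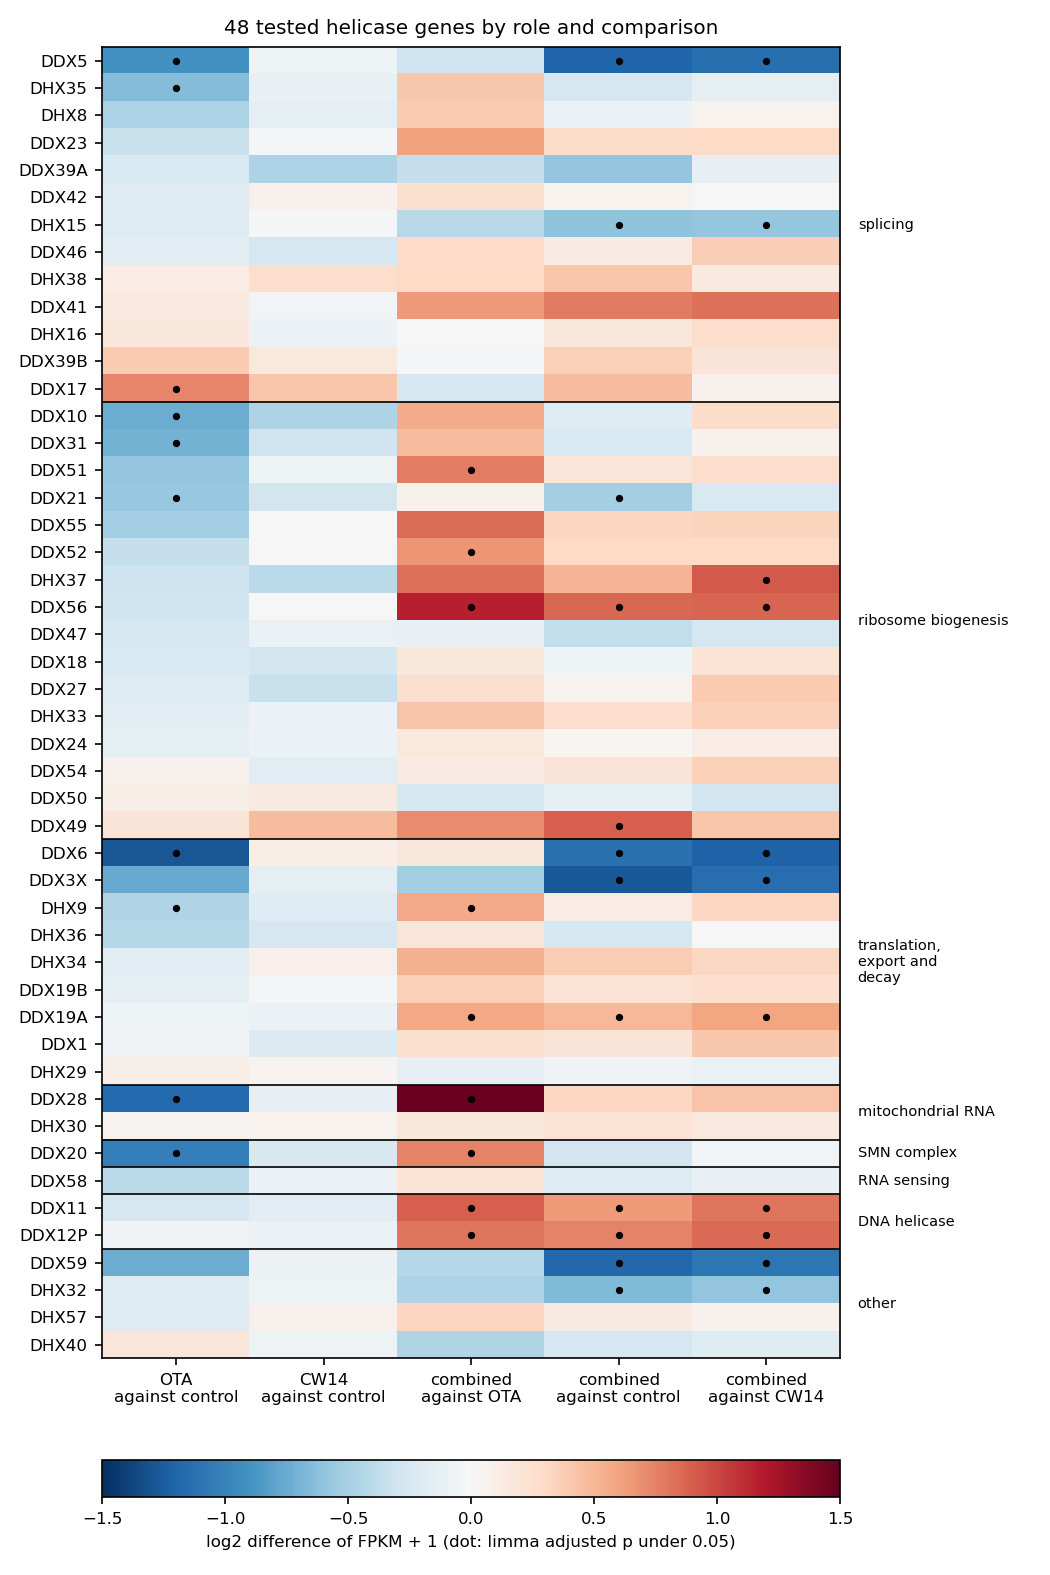
Log2 difference of FPKM + 1 (colour) for the 48 tested helicase genes (rows, grouped by role) in 5 comparisons (columns), where black dots mark a limma adjusted p under 0.05. The column for OTA against control has 9 dots on blue and 1 on red, that for CW14 against control has 0, and that for the combined group against OTA has 9, all on red.

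Among the helicases of translation, export and decay, DDX6 showed the largest fall with OTA. DDX6 represses translation and promotes removal of the mRNA cap in cytoplasmic processing bodies, and its deposited locus was chromosome 11, 118618471 to 118661972 (hg19). It had 22.6, 22.9 and 22.6 FPKM in OTA libraries, against 57.2, 57.9 and 54.9 FPKM in control libraries. The groups did not overlap, and the OTA libraries lay close together (SD 0.162 FPKM, n = 3). The fall was 1.28 on the log2 scale (SE 0.12, limma adjusted p = 2.32e-05). With CW14 alone DDX6 stayed high, at 61.7, 59.0 and 62.3 FPKM in CW14 libraries. It was low again in the combined group, at 25.9, 29.8 and 21.9 FPKM. All 3 combined libraries lay below the CW14 and control libraries, with log2 difference -1.22, SE 0.12, limma adjusted p = 2.84e-05 against CW14 and log2 difference -1.11, SE 0.12, limma adjusted p = 6.05e-05 against control. Between the combined and OTA groups DDX6 was not called (log2 difference 0.17, SE 0.12, limma adjusted p = 0.357), but it was higher without combined replicate 3 (log2 difference 0.28, limma adjusted p = 0.0414).

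DDX3X, which helps ribosomes start on structured mRNAs (chromosome X, 41192559 to 41223725, hg19), had less RNA in each of the 6 libraries with OTA than in any of the 6 without. It had 73.2, 94.1 and 89.9 FPKM in OTA libraries, against 151, 146 and 138 FPKM in control libraries. These groups did not overlap, but the difference was not called (log2 difference -0.76, SE 0.28, limma adjusted p = 0.0894). It was called without combined replicate 3 (adjusted p = 0.000172). In the combined group the values were 79.5, 83.6 and 31.6 FPKM, against 142, 129 and 127 FPKM in CW14 libraries (log2 difference -1.14, SE 0.28, limma adjusted p = 0.0107). Combined replicate 3 was the lowest of the 12 libraries for this gene. The difference from CW14 was -0.69 on the log2 scale without it, and remained called (adjusted p = 0.000819).

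DHX9, a helicase that resolves double-stranded RNA and RNA-DNA hybrids, was lower in OTA than in control and higher in the combined group than in OTA. It had 22.9, 21.2 and 22.8 FPKM in the combined group, 14.5, 15.0 and 14.9 in OTA, 20.9, 16.4 and 16.4 in CW14 and 19.4, 20.6 and 21.6 in control libraries. Each OTA library lay below each of the other 9. OTA differed from control by -0.45 on the log2 scale (SE 0.13, limma adjusted p = 0.029), and the combined group from OTA by 0.56 (SE 0.13, limma adjusted p = 0.0144). Both comparisons use the same 3 OTA libraries. The call against control was lost without any 1 control or OTA library, under the 3 other scalings and with replicate number as a block (adjusted p up to 0.108), and that against OTA without OTA replicate 2 or 3.

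DDX19A and DDX19B are neighbouring, closely similar genes for helicases that release mRNA at the nuclear pore, and fragments can be split between them. DDX19A had 31.4, 27.4 and 27.1 FPKM in the combined group, 17.4, 17.9 and 21.5 in OTA, 18.7, 18.7 and 18.6 in CW14 and 19.6, 21.0 and 19.4 in control libraries. Each combined library was above the other 9, and DDX19A was called higher against OTA (log2 difference 0.57, SE 0.12, limma adjusted p = 0.0122), except without OTA replicate 2. It was also called against CW14 (log2 difference 0.59, SE 0.12, limma adjusted p = 0.00413) and control (log2 difference 0.49, SE 0.12, limma adjusted p = 0.0111). DDX19B had 12.9, 8.71 and 17.6 FPKM in the combined group and 9.26, 9.72 and 9.89 FPKM in the OTA group, which overlapped (log2 difference 0.36, SE 0.21, limma adjusted p = 0.245). The remaining 4 genes of this role were DDX1, DHX29, DHX34 and DHX36, and none was called in any comparison of 2 groups with all libraries in the fit. DHX36, which unwinds G-quadruplexes, had 5.77 ± 0.502 FPKM with OTA and 8.15 ± 1.02 FPKM in control (SD, n = 3 each, limma adjusted p = 0.0659). DHX36 was called lower with OTA without combined replicate 3 (limma adjusted p = 0.0294).

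Of the 13 splicing helicases, 1 was higher and 2 were lower with OTA, and 10 were not called. The share called was 23.1%, against 17.7% of all genes tested. DDX5 and DDX17 are close relatives that act in splicing, microRNA processing and transcription, and they moved in opposite directions. DDX5 (chromosome 17, 62494372 to 62502484, hg19) had 77.3, 84.8 and 92.2 FPKM in OTA libraries, against 149, 159.6 and 170.0 FPKM in control libraries. The groups did not overlap (log2 difference -0.91, SE 0.12, limma adjusted p = 0.000361). DDX17 (chromosome 22, 38864065 to 38902345, hg19, a span that also holds KDELR3) had 138, 153 and 145 FPKM in OTA libraries, against 79.6, 91.3 and 89.7 FPKM in control libraries. The OTA libraries were all higher (log2 difference 0.74, SE 0.18, limma adjusted p = 0.0142). The DDX17 call was lost under quantile normalization and without control replicate 1, OTA replicate 2 or OTA replicate 3, with adjusted p of 0.0505 to 0.0749, and the difference was positive in all 21 alternatives.

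Within a library the ratio of DDX17 to DDX5 does not depend on scaling between libraries. The ratio of their FPKM was 1.78, 2.1996 and 1.40 in the combined group, 1.78, 1.80 and 1.57 in OTA, 0.712, 0.807 and 0.787 in CW14 and 0.533, 0.572 and 0.528 in control libraries. DDX17 was the more abundant of the pair in the 6 libraries with OTA, and DDX5 in the 6 without. CW14 libraries lay between the OTA and control libraries and overlapped neither. This pair was set side by side after its values were seen, so the ratio is a description and was not tested.

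**Figure D2:**
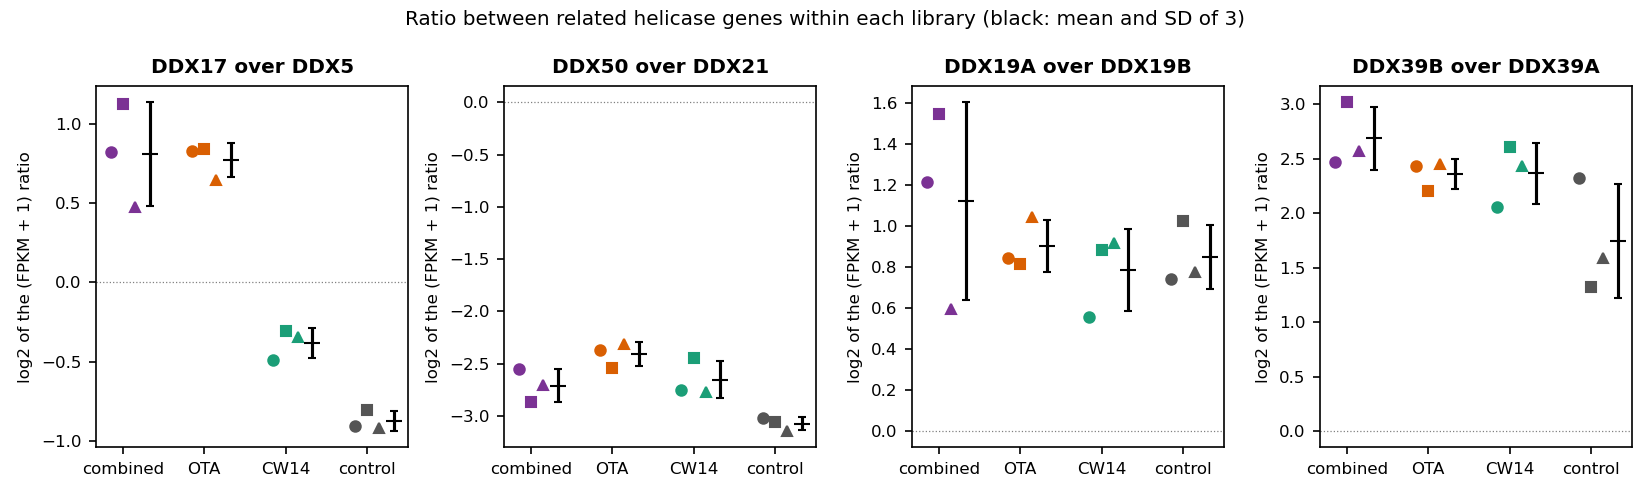
Log2 of the ratio of FPKM + 1 between related helicase genes within each library (points, circle, square and triangle for replicates 1, 2 and 3), with the mean and SD of 3 libraries in black, for the combined, OTA, CW14 and control groups. The ratio of DDX17 to DDX5 is above 0 in every library with OTA and below 0 in every library without it, while the groups overlap for DDX19A over DDX19B.

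In the combined group DDX5 stayed low, at 76.7, 68.5 and 61.4 FPKM, and lay below CW14 (log2 difference -1.13, SE 0.12, limma adjusted p = 5.79e-05) and below control (log2 difference -1.21, SE 0.12, limma adjusted p = 3.67e-05). DDX17 had 136, 151 and 85.9 FPKM there, and combined replicate 3 fell within the control range. Against control DDX17 was not called (log2 difference 0.47, SE 0.18, limma adjusted p = 0.0654), but it was called without that library (log2 difference 0.72, limma adjusted p = 0.000252). DHX15, which takes spent spliceosomes apart, had 24.6, 23.1 and 17.5 FPKM in the combined group, against 32.5, 36.1 and 29.9 FPKM in CW14 libraries. Its combined libraries were all lower (log2 difference -0.58, SE 0.14, limma adjusted p = 0.00934), and it was called against control too (log2 difference -0.61, SE 0.14, limma adjusted p = 0.0084). DHX35, a component of active spliceosomes, had 3.93 ± 0.857 FPKM with OTA and 6.67 ± 0.510 FPKM in control (SD, n = 3 each, limma adjusted p = 0.0295). The DHX35 call was lost in 9 alternatives, among them the 3 other scalings and leaving out any 1 control library or OTA replicate 1 or 3 (adjusted p up to 0.125).

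DDX39B, which acts in spliceosome assembly and hands mRNA to the export machinery, had 17.8, 18.0 and 17.2 FPKM in OTA libraries, against 12.8, 12.5 and 14.6 FPKM in control libraries. The OTA libraries were all higher, without a call when all libraries were fitted (log2 difference 0.39, SE 0.14, limma adjusted p = 0.0737). Without combined replicate 3 DDX39B was called higher in OTA (limma adjusted p = 0.0159) and in the combined group (log2 difference 0.46, limma adjusted p = 0.0133), each against control. Its deposited locus holds 5 other entries, among them a read-through transcript that shares its exons. Its close copy DDX39A had 2.48, 3.14 and 2.34 FPKM in OTA libraries and 1.75, 4.43 and 4.19 FPKM in control libraries, which overlapped. The spliceosome helicases DDX23, DDX41, DDX42, DDX46, DHX8, DHX16 and DHX38 were called in no comparison of 2 groups with all libraries in the fit. DDX42 was called higher in the combined group than in OTA without combined replicate 3 (log2 difference 0.34, limma adjusted p = 0.0462). DDX42, the most abundant of these, had 43.3 ± 4.78 FPKM in the combined group, 36.2 ± 1.58 in OTA, 43.4 ± 3.91 in CW14 and 41.7 ± 4.03 in control (SD, n = 3 each). DDX41 had 36.8 FPKM in combined replicate 3 and 7.51 to 12.5 FPKM in the other 11 libraries.

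Of the 16 helicases of ribosome biogenesis, 0 were higher and 3 were lower with OTA, and 13 were not called. The share called was 18.8%, against 17.7% of all genes tested. DDX21, which acts in ribosomal RNA transcription and processing in the nucleolus, was the most abundant helicase gene (chromosome 10, 70715877 to 70744825, hg19). It had 159.9, 178 and 165 FPKM in OTA libraries, against 260.1, 240.3 and 249 FPKM in control libraries (log2 difference -0.57, SE 0.13, limma adjusted p = 0.00796). The CW14 libraries, at 206, 196 and 215 FPKM, also lay below every control library, but CW14 was not called (log2 difference -0.28, SE 0.13, limma adjusted p = 0.748). In the combined group DDX21 had 160.5, 162 and 209.6 FPKM, lower than control (log2 difference -0.50, SE 0.13, limma adjusted p = 0.0113). Its tandem neighbour and close relative DDX50 had 30.1, 29.9 and 32.5 FPKM in OTA libraries and 31.2, 28.1 and 27.3 FPKM in control libraries, which overlapped (log2 difference 0.09, SE 0.14, limma adjusted p = 0.701). The ratio of DDX50 to DDX21 was 0.188, 0.168 and 0.197 in OTA libraries, against 0.120, 0.117 and 0.110 in control libraries, with no overlap. This pair too was chosen after its values were seen.

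DDX10 and DDX31 were the other 2 nucleolar genes called lower with OTA. DDX10, needed for the small ribosomal subunit, had 17.8, 14.4 and 14.6 FPKM in OTA libraries, against 25.6, 27.4 and 26.9 FPKM in control libraries (log2 difference -0.74, SE 0.20, limma adjusted p = 0.0257). DDX31 had 1.64, 2.18 and 1.51 FPKM in OTA libraries, against 3.00, 3.99 and 3.57 FPKM in control libraries (log2 difference -0.70, SE 0.20, limma adjusted p = 0.0281). Neither pair of groups overlapped, but both calls were lost when single libraries were left out. The DDX10 call was lost without any 1 of control replicates 1, 2 and 3 or OTA replicates 2 and 3 (adjusted p up to 0.0931). The DDX31 call was lost without control replicate 2 or 3 or OTA replicate 1 or 3, and with replicate number as a block (adjusted p up to 0.108). DDX24 and DDX47, the abundant nucleolar helicases beside DDX21, were not called. DDX24 had 38.8, 45.7 and 40.3 FPKM in OTA libraries and 45.5, 46.2 and 44.6 FPKM in control libraries. DDX47 had 32.4, 34.6 and 29.5 FPKM in OTA libraries and 33.3, 44.1 and 38.9 FPKM in control libraries.

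Beside DDX6, the largest falls with OTA were those of DDX28 and DDX20. DDX28 acts in assembly of the mitochondrial ribosome (chromosome 16, 68055175 to 68113226, hg19, a span that also holds DUS2). It had 11.6, 9.62 and 10.3 FPKM in the combined group, 4.72, 2.48 and 2.49 in OTA, 8.46, 7.44 and 6.72 in CW14 and 8.07, 7.53 and 9.17 in control libraries. Each OTA library lay below the other 9, and each combined library above them. OTA was lower than control (log2 difference -1.17, SE 0.20, limma adjusted p = 0.00152), and the combined group was higher than OTA (log2 difference 1.48, SE 0.20, limma adjusted p = 0.00246). DHX30, the other helicase of mitochondrial RNA, was not called, with 8.97 ± 1.62 FPKM in OTA and 8.66 ± 1.09 FPKM in control (SD, n = 3 each).

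DDX20, also called Gemin3, belongs to the SMN complex that loads proteins onto spliceosomal small nuclear RNAs (chromosome 1, 112264684 to 112310199, hg19, a span with 3 other entries). It had 3.46, 3.13 and 3.10 FPKM in the combined group, 1.79, 1.69 and 1.16 in OTA, 3.59, 3.92 and 2.67 in CW14 and 3.74, 4.06 and 4.68 in control libraries. Each OTA library again lay below the other 9. OTA was lower than control (log2 difference -1.02, SE 0.17, limma adjusted p = 0.00168), and the combined group was higher than OTA (log2 difference 0.74, SE 0.17, limma adjusted p = 0.0175). For DDX28 and DDX20 these comparisons share the 3 OTA libraries. Without combined replicate 3 the combined group remained above OTA for both, by 1.49 and 0.76 on the log2 scale (adjusted p = 0.00177 and 0.0157). The DDX20 call against OTA was lost without OTA replicate 2 or 3.

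CW14 against control asks what the bacterium alone did, and limma called 0 of the 48 helicase genes, against 0.364% of all genes tested, with 0.217% higher and 0.147% lower. At an unadjusted p under 0.05 there were 3 of 48, and 858 of all 12928 genes. The median log2 difference of the 48 was -0.09, against -0.02 over all genes. The CW14 libraries lay all above the control libraries for 3 of the 48 and all below for 7, against 9.66% and 10.9% of all genes. The lowest p belonged to DDX17, with 114, 124 and 109 FPKM in CW14 libraries, against 79.6, 91.3 and 89.7 FPKM in control libraries. The CW14 libraries were all higher (log2 difference 0.41, SE 0.18, limma adjusted p = 0.72), and DDX17 was the 1 helicase gene called without combined replicate 3 (adjusted p = 0.0496), when 0.951% of all genes were. DDX10 came next, with 19.6, 17.9 and 19.7 FPKM in CW14 libraries, all below the 3 control libraries (log2 difference -0.46, SE 0.20, limma adjusted p = 0.739).

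The combined group against OTA asks what adding the bacterium to the toxin did. It called 9 helicase genes, all higher, which is 18.8% of the 48, against 16% of all genes called in either direction, 7.79% higher and 8.22% lower. The median log2 difference of the 48 was 0.27, against 0.03 over all genes. The combined libraries lay all above the OTA libraries for 18 of the 48 and all below for 5, against 17.8% and 16.6% of all genes. Median-centring gave 9 higher and 2 lower, against 774 higher and 1335 lower of the 12928 genes tested. The count was 0 with only these 2 groups in the fit, 4 without OTA replicate 2, 3 without OTA replicate 3, 11 without combined replicate 3 (21.2% of all genes) and 19 without combined replicate 2. No share of all genes is given beside the 0, 4, 3 and 19, so these counts are not a result about the helicases. By role, 3 of 16 ribosome biogenesis genes, 2 of 9 genes of translation, export and decay and 0 of 13 splicing genes were higher. The rest were DDX28, DDX20, DDX11 and DDX12P.

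DDX56, which acts in assembly of the large ribosomal subunit, had 8.74, 9.02 and 12.4 FPKM in the combined group, against 3.22, 4.61 and 3.93 FPKM in OTA libraries. CW14 libraries had 4.50, 4.70 and 5.87 FPKM and control libraries 5.31, 5.84 and 4.00 FPKM. Each combined library was above the other 9 (log2 difference 1.16, SE 0.19, limma adjusted p = 0.00429 against OTA). It was also called against CW14 (log2 difference 0.87, SE 0.19, limma adjusted p = 0.00533) and control (log2 difference 0.87, SE 0.19, limma adjusted p = 0.0059). DDX51, which processes the end of 28S ribosomal RNA, had 7.52, 7.62 and 10.6 FPKM in the combined group, against 4.40, 5.77 and 3.69 FPKM in OTA libraries (log2 difference 0.77, SE 0.19, limma adjusted p = 0.0225). DDX52 had 11.5 ± 0.864 FPKM in the combined group and 6.94 ± 0.852 FPKM with OTA (SD, n = 3 each, limma adjusted p = 0.025), and its deposited locus spans 31 other entries. The DDX51 call was lost without OTA replicate 1 or 3, and the DDX52 call without any 1 OTA library.

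DDX11, a DNA helicase that helps hold sister chromatids together, and its pseudogene copy DDX12P both rose, and fragments can be split between them. DDX11 had 14.5, 13.9 and 27.7 FPKM in the combined group, against 9.002, 9.52 and 8.74 FPKM in OTA libraries (log2 difference 0.90, SE 0.21, limma adjusted p = 0.0186). Its locus also holds an antisense gene, and the library kit is not stated to mark strand. DDX12P had 11.8, 15.0 and 21.3 FPKM in the combined group, against 8.39, 8.74 and 8.47 FPKM in OTA libraries (log2 difference 0.80, SE 0.18, limma adjusted p = 0.014). Combined replicate 3 was the highest library for both. Without it the log2 differences were 0.59 and 0.59, and both were called (adjusted p = 0.00686 and 0.00901). The DDX11 call was lost without any 1 OTA library, and the DDX12P call without OTA replicate 3. Against control DDX11 was called (log2 difference 0.64, SE 0.21, limma adjusted p = 0.0432) but lost the call in 13 alternatives, among them leaving out combined replicate 3 (adjusted p = 0.0508). Against CW14 it lost its call (log2 difference 0.80, SE 0.21, limma adjusted p = 0.0155) without CW14 replicate 1. DDX12P was higher than in control (log2 difference 0.75, SE 0.18, limma adjusted p = 0.00898) and CW14 (log2 difference 0.85, SE 0.18, limma adjusted p = 0.00419).

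**Figure D3:**
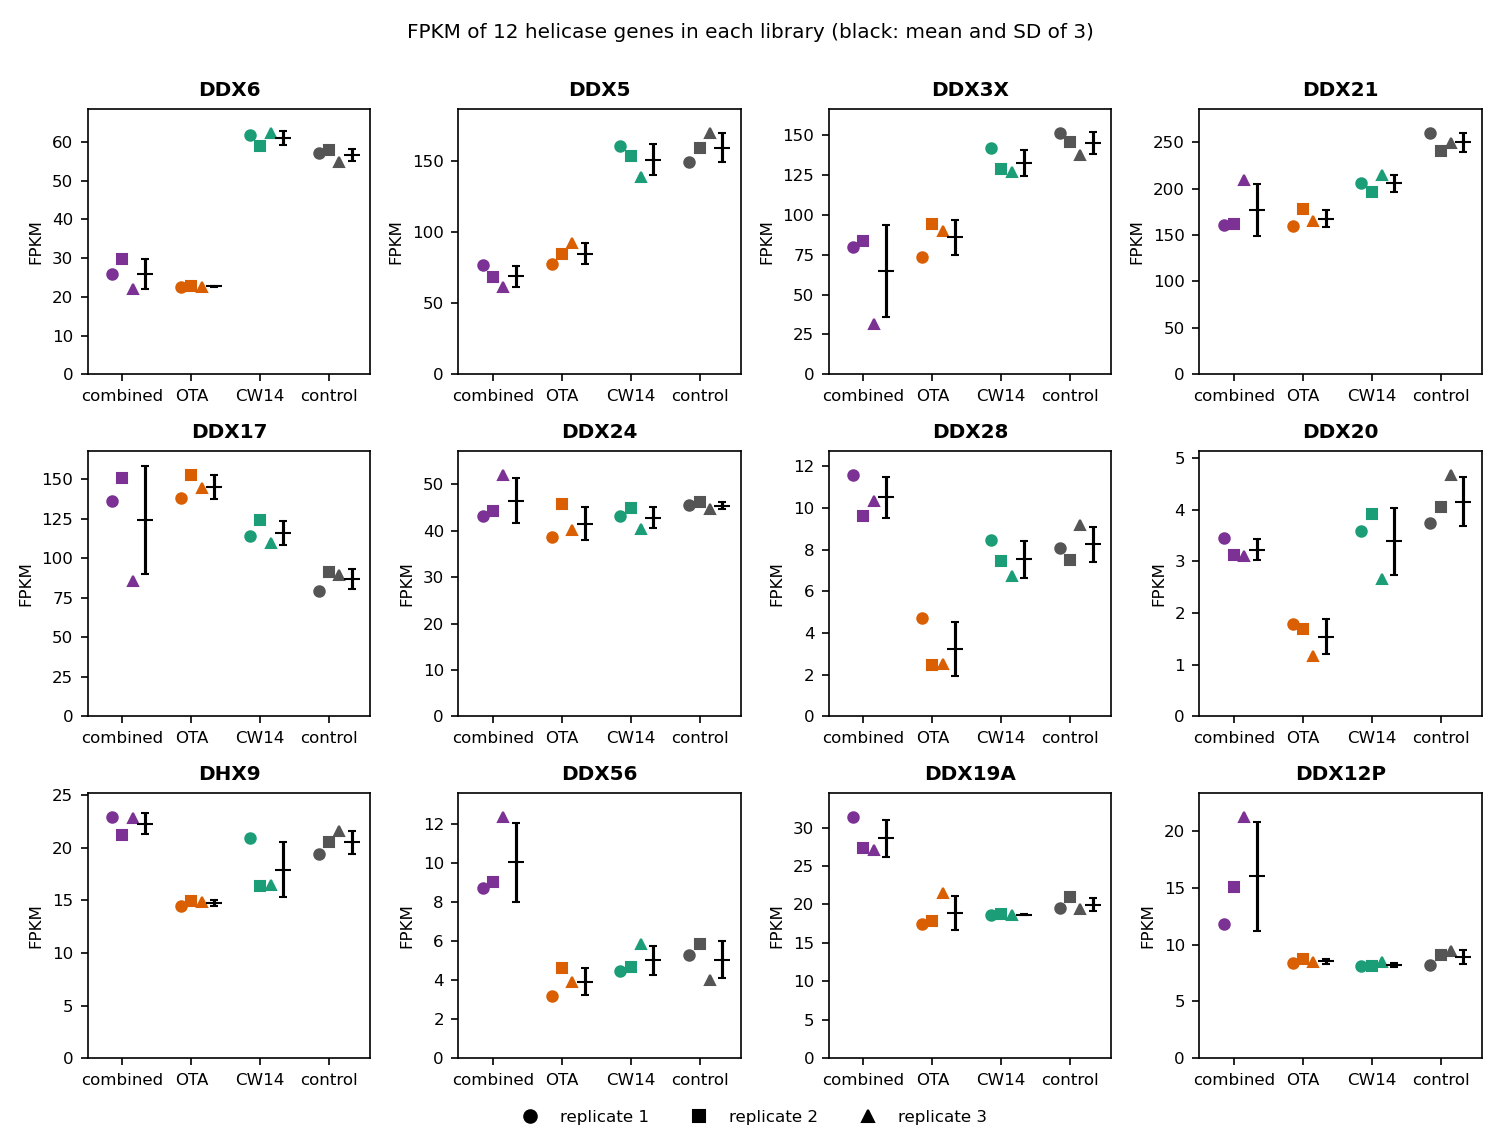
FPKM (vertical axes, each from 0) of 12 helicase genes in the 3 libraries of the combined, OTA, CW14 and control groups, with the mean and SD in black. DDX6 and DDX5 are low in both groups with OTA, DDX28, DDX20 and DHX9 are low in the OTA group alone, and DDX56, DDX19A and DDX12P are high in the combined group alone.

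The interaction of OTA and CW14, which asks whether the 2 agents together differ from the sum of their separate effects, was called for 3 helicase genes, all positive. They were DDX28, DDX56 and DHX9, or 6.25% of the 48, against 3.33% of all genes, where 1.85% of all genes were positive and 1.49% negative. The median interaction of the 48 was 0.41 on the log2 scale, against 0.04 over all genes. The count without combined replicate 3 was 9, 8 positive and 1 negative, against 12.3% of all genes. The negative one was DDX17 (log2 value -0.43, limma adjusted p = 0.0486), and the 5 positive ones gained were DDX10, DDX11, DDX12P, DDX19A and DDX20. Without combined replicate 2 the count was 10. It was 0 without control replicate 2 or 3 or without OTA replicate 2 or 3, and 1 without control replicate 1, OTA replicate 1 or any 1 CW14 library, and with replicate number as a block. No share of all genes is given beside the counts of 10, 0 and 1, so they are not a result about the helicases. The interaction had a log2 value of 1.60, SE 0.28, limma adjusted p = 0.0179 for DDX28, a log2 value of 1.16, SE 0.27, limma adjusted p = 0.0428 for DDX56 and a log2 value of 0.76, SE 0.18, limma adjusted p = 0.045 for DHX9.

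The upstream sequences of these 3 genes and of DDX20 are shown because the first 3 had called interactions and DDX20, like DDX28 and DHX9, was called in both comparisons that involve OTA alone. They are the 250 bases before the start in RefSeq (GRCh38.p14, matched by symbol), 5′ to 3′ on the gene's strand. Capitals mark matches on either strand to the cyclic AMP response element TGACGTCA, to the CCAAT box, to the GC box GGGCGG, to the ETS core CCGGAAG or to the TATA box TATAAA.
DDX28, chr16:68023233-68023482, minus strand: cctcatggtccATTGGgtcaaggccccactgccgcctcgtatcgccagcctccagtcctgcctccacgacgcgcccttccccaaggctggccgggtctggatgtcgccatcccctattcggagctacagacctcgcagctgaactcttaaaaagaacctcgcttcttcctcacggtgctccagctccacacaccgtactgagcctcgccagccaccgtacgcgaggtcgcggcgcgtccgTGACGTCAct
DDX56, chr7:44573909-44574158, minus strand: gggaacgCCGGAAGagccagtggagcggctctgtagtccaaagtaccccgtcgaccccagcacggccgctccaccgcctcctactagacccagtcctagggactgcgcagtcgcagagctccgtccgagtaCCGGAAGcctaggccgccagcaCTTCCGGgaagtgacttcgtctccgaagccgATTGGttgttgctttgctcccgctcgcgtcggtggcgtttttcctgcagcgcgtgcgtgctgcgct
DHX9, chr1:182839097-182839346, plus strand: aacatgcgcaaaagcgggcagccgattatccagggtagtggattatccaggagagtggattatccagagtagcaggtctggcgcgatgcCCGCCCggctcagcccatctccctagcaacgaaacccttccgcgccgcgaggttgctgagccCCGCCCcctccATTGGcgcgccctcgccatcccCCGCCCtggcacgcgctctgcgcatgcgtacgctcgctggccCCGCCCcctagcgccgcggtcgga
DDX20, chr1:111755651-111755900, plus strand: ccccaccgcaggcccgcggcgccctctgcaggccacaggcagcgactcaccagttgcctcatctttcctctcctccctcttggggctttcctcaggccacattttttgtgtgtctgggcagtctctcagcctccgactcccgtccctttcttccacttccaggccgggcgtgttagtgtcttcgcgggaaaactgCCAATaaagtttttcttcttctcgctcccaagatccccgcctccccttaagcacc
All 4 hold CCAAT or its reverse ATTGG, which 32.0% of the 35116 promoters in the table also hold. TGACGTCA, known to bind CREB and ATF factors, lies 10 bases before the DDX28 start and is found in 1.65% of all promoters. CCGGAAG or its reverse CTTCCGG is present at 3 places before DDX56 and in 8.52% of all promoters. GGGCGG or its reverse is present at 4 places before DHX9 and in 42.6% of all promoters, and TATAAA or its reverse stands before none of the 4, against 10.7% of all promoters. Of the 57 helicase entries, 49 matched the table by symbol, with 66 listed starts. CCGGAAG or its reverse stood before 20 of these starts, or 30.3%, and TGACGTCA before 5, or 7.58%. The shares of these starts were 42.4% for the CCAAT box, 54.5% for the GC box and 6.06% for the TATA box. The 35116 promoters were not limited to expressed genes, and no difference between these shares was tested. A match describes these letters and was not tested as a binding site.

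The combined group against control called 12 helicase genes, 5 higher and 7 lower. That is 25% of the 48, against 28.8% of all genes, where 12% of all genes were higher and 16.8% lower. The median log2 difference of the 48 was 0.12, against 0.02 over all genes. The combined libraries lay all above the control libraries for 9 of the 48 and all below for 9, against 19.1% and 22.8% of all genes. Without combined replicate 3 the count was 13, against 32.7%, with DDX11 and DDX49 lost and DDX10, DDX17 and DDX39B gained. The combined group against CW14, which asks what the toxin did in the presence of the bacterium, called 11, 5 higher and 6 lower, or 22.9%, against 32.3% of all genes, where 14.8% of all genes were higher and 17.5% lower. Its median was 0.17, against 0.02 over all genes. The combined libraries lay all above the CW14 libraries for 10 of the 48 and all below for 6, against 19.9% and 21.9%. Leaving out combined replicate 3 gave 12, against 33.7%, with DHX32 and DHX37 lost and DDX17, DDX21 and DDX50 gained. With only the compared groups in the fit the counts were 3 and 4, with no share of all genes beside them. Median-centring gave 7 higher and 7 lower against control, where 1848 of all genes were higher and 1968 lower. Quantile normalization gave 8 higher and 6 lower against CW14, where 2365 of all genes were higher and 2121 lower. These comparisons share the combined libraries, and in both DDX6, DDX5, DDX3X, DDX59, DHX32 and DHX15 were lower.

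DDX59 had 4.14, 6.41 and 1.75 FPKM in the combined group, 4.23, 6.68 and 5.38 in OTA, 9.43, 7.69 and 9.99 in CW14 and 12.0, 8.11 and 9.16 in control libraries. Its 6 libraries with OTA lay below the 6 without (log2 difference -1.17, SE 0.30, limma adjusted p = 0.0138 for the combined group against control). OTA alone was not called (log2 difference -0.74, SE 0.30, limma adjusted p = 0.116), except without combined replicate 3 (adjusted p = 0.0138). The DDX59 call of the combined group against control was lost without control replicate 1, and that against CW14 (log2 difference -1.08, SE 0.30, limma adjusted p = 0.0182) without CW14 replicate 1 or 3. DHX32 had 10.3, 8.76 and 7.79 FPKM in the combined group, against 13.9, 14.9 and 13.1 FPKM in CW14 and 16.2, 12.0 and 16.2 FPKM in control libraries (log2 difference -0.67, SE 0.19, limma adjusted p = 0.0207 against control). The DHX32 call was lost without control replicate 1 or 3, and that against CW14 without any 1 CW14 library or combined replicate 3 (adjusted p = 0.0641). Among the genes higher in the combined group, DDX49 had 9.67, 6.65 and 19.2 FPKM, against 5.47, 6.05 and 4.64 FPKM in control libraries (log2 difference 0.89, SE 0.29, limma adjusted p = 0.0352). DHX37, which acts in maturation of the small ribosomal subunit, had 4.13, 2.63 and 6.39 FPKM, against 2.18, 1.14 and 2.02 FPKM in CW14 libraries (log2 difference 0.91, SE 0.26, limma adjusted p = 0.0208). Combined replicate 3 was the highest library for both. Without it DDX49 and DHX37 lost their calls (adjusted p = 0.0641 and 0.055), with log2 differences of 0.51 and 0.66. The DDX49 call was also lost without any 1 control library, OTA replicate 1 or combined replicate 1, and the DHX37 call without CW14 replicate 2.

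The 4 RNA sensors were low, and only 1, DDX58, passed the filter and was tested. It was called in no comparison with all libraries in the fit. DHX58, DDX60 and DDX60L were not tested. DDX58, which encodes RIG-I, the receptor for short double-stranded RNA with a 5′ triphosphate, had 4.42, 3.52 and 2.88 FPKM in the combined group, 2.43, 3.28 and 3.25 in OTA, 4.31, 4.48 and 3.07 in CW14 and 3.72, 4.46 and 4.50 in control libraries. Its OTA libraries lay below the control libraries (log2 difference -0.40, SE 0.19, limma adjusted p = 0.175). DHX58, which encodes the related regulator LGP2, ranged up to 0.791 FPKM, DDX60 up to 0.206 and DDX60L up to 0.103, each with 0 in some libraries. Of 12 tested genes of the RIG-I pathway, 1 was lower with OTA, or 8.33%, against 12.9% of all genes tested. It was TBK1, a kinase that turns on interferon genes, with 5.59 ± 0.475 FPKM in OTA and 10.2 ± 1.23 FPKM in control (SD, n = 3 each, limma adjusted p = 0.0057). In the combined group against OTA, TRIM25, which activates RIG-I, was lower, at 10.4 ± 1.55 FPKM in the combined group and 24.3 ± 2.71 FPKM in OTA (limma adjusted p = 0.00429). TRIM25 was the 1 of the 12 called there, or 8.33%, against 8.22% of all genes called lower. IFNB1, interferon beta, was listed at 0 in all 12 libraries.

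Genes that work with these helicases were counted in the same fit, with all libraries in it. Their calls are not given without combined replicate 3. The eIF4A list holds the DEAD box helicases EIF4A1, EIF4A2 and EIF4A3, which carry other names, together with genes that are not helicases, such as EIF4B, EIF4E and PDCD4. Of its 10 genes, 0 were called with OTA, and 3 were lower in the combined group than in OTA, namely EIF4A2, EIF4B and PDCD4. EIF4A2 had 375, 312 and 397 FPKM in the combined group, against 926, 968 and 948 FPKM in OTA libraries (limma adjusted p = 0.00297). EIF4A1 had 125 ± 62.6 FPKM in the combined group and 111 ± 5.20 FPKM in OTA, and was not called. EIF4B, which stimulates eIF4A, had 147 ± 28.3 FPKM in the combined group and 285 ± 9.36 FPKM in OTA (limma adjusted p = 0.00297).

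Of 11 partners of DDX6 in decapping, 1 was lower with OTA. DCP1A, a subunit of the decapping enzyme, had 14.3 ± 2.15 FPKM in OTA and 29.5 ± 1.62 FPKM in control (SD, n = 3 each, limma adjusted p = 0.000851). In the combined group against OTA 3 of the 11 were lower, among them PATL1, which links DDX6 to decapping, at 24.4 ± 4.84 FPKM in the combined group and 41.9 ± 2.64 FPKM in OTA. Of 15 export genes, 3 were lower with OTA and 3 were higher in the combined group than in OTA. CHTOP, a partner of DDX39B in the TREX export complex, had 34.6 ± 2.40 FPKM in the combined group, 21.0 ± 2.46 in OTA and 46.2 ± 3.07 in control. Of 16 G-patch genes, a class whose protein domain switches on DEAH box helicases, 5 were lower with OTA and 7 were higher in the combined group than in OTA. GPATCH8 had 19.1 ± 1.79 FPKM in the combined group, 13.7 ± 0.0513 in OTA and 26.1 ± 0.267 in control.

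Of 8 tested partners of DDX20 in the SMN complex, 0 were called with OTA and 3 were higher in the combined group than in OTA, namely GEMIN4, GEMIN5 and GEMIN6. GEMIN4 had 7.34 ± 1.89 FPKM in the combined group and 3.53 ± 0.472 FPKM in OTA (SD, n = 3 each, limma adjusted p = 0.0114). Of 12 genes of the exon junction complex and nonsense-mediated decay, 2 were lower with OTA and 1, SMG6, was higher in the combined group than in OTA. Among RNA helicases with other names, ZNFX1 was lower with OTA. It had 3.40 ± 0.284 FPKM in OTA and 10.9 ± 1.43 FPKM in control (limma adjusted p = 3.19e-05). Of all genes tested, 12.9% were lower and 4.82% higher with OTA, and in the combined group against OTA 7.79% were higher and 8.22% lower. Whether any of these lists differs from other genes was not tested.

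**Figure D4:**
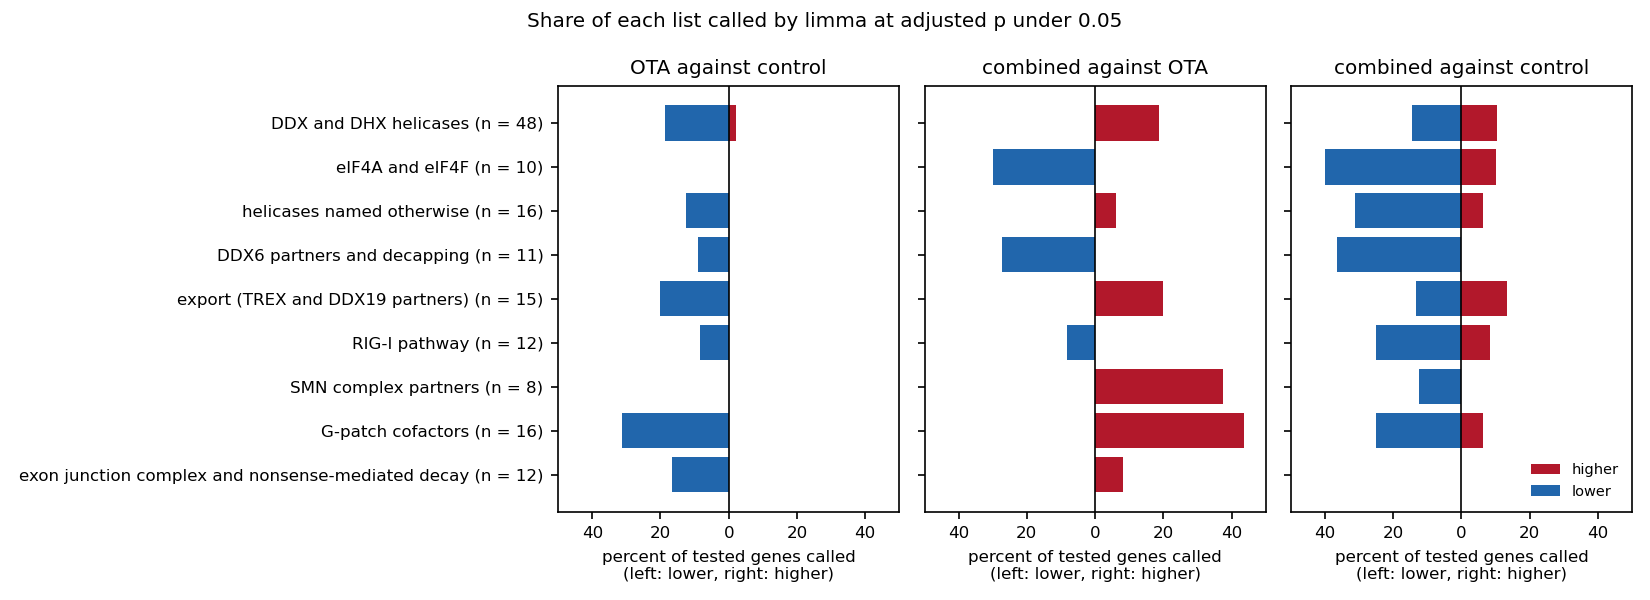
Percent of tested genes called higher (right, red) or lower (left, blue) at a limma adjusted p under 0.05, for the DDX and DHX helicases and 8 lists of related genes, in 3 comparisons. In OTA against control every call outside the helicases points left, and in the combined group against OTA the eIF4A and DDX6 partner lists point left while the SMN, G-patch and export lists point right.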

How the data were processed

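Gene expression was measured by RNA sequencing of 12 Caco-2 libraries, 3 in each of 4 groups. The deposited FPKM values cover 26125 entries, 2 of whose identifiers occur more than once. Per the submitters' processing notes, the authors used build hg19 with TopHat2 2.0.13 and cutadapt 1.10, and Cuffnorm and Cuffdiff beside Cufflinks 2.2.1. A NEBNext Ultra kit and paired reads were used, per the labels' protocols. Deposited FPKM values carry no counts, so total depth is unknown. A relative depth was recovered from the most frequent ratio between control replicate 1 and each library, among genes under 0.3 FPKM in both. This check was chosen after the data were seen. Cufflinks divides fragments among overlapping and similar genes by an estimate, which can move values between copies.

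From these values log2(FPKM + 1) was computed, which understates changes of low genes. Genes with a mean under 1 FPKM were left out, and limma 3.58.1 (R 4.3.3) was fitted to the 12928 others over all 4 groups, with a mean-variance trend, 8 residual degrees of freedom among libraries and Benjamini-Hochberg adjustment. The interaction is the combined group minus OTA minus CW14 plus control. The script was tested on simulated data. Groups came from the labels, and columns were matched by the descriptions.

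The helicase genes, the role and companion lists and the tests were chosen with earlier results of these data known. Values are given for the 8 most abundant helicase genes, up to 6 called genes in each direction with the largest differences per comparison, all called interactions, and the RNA sensors and paralogue pairs. Alternatives were other scalings, pseudocounts and filters, no trend, a replicate block, the compared groups only, and leaving out each library. Promoter sequences came from RefSeq (GRCh38.p14), matched by symbol, and no coordinate was converted between builds. Deposited loci are printed as the authors give them. The result of 1 gene among the RNA helicases with other names is not reported here.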

Additional observations from a re-analysis of the deposited data

Results flagged for a closer look

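For 3 helicase genes the interaction of OTA and CW14 was called with all libraries in the fit, by a test of the interaction itself. The interaction was 1.60 on the log2 scale for DDX28 (limma adjusted p = 0.0179). It was 1.16 for DDX56 (limma adjusted p = 0.0428). It was 0.76 for DHX9 (limma adjusted p = 0.045). Without combined replicate 3 the 3 values were 1.61, 1.02 and 0.74, and all were called (limma adjusted p = 0.00942, 0.0243 and 0.0175). Other alternatives lost the call, 4 of them for DDX28, 12 for DDX56 and 14 for DHX9. With control replicate 2 or 3 or OTA replicate 2 or 3 left out, none of the 3 genes was called.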

How the results depend on the processing

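Of 45 called differences of single helicase genes, 12 kept their call in every alternative that gave a value, 33 lost it in at least 1 of the 21, and 0 reversed. With only the compared groups in the fit, the combined group had 0 called helicase genes relative to OTA, 3 relative to control and 4 relative to CW14, while OTA against control had 15, where it had 10 with all groups. With replicate number as a block, the interaction was called for 1 gene. The block moved no other count of calls by over 1.5 times. Same-numbered libraries correlated in their deviations at -0.15 to 0.154 over 18 pairs, against -0.136 to 0.191 over 36 pairs of different number. Of 12 libraries, 1 correlated best with its own number. Whether libraries of the same number were handled together was not tested. Leaving out 1 library at a time gave 5 to 16 called genes for OTA against control, 0 to 1 for CW14 against control, 3 to 19 for the combined group against OTA and 0 to 10 for the interaction. The interaction call of DDX28 was lost without control replicate 2 or 3 or OTA replicate 2 or 3 (adjusted p = 0.0524 to 0.0639), that of DDX56 in 12 alternatives and that of DHX9 in 14. The causes of these moves were not tested. Except without combined replicate 3, the counts of called genes here stand without the share of all genes. Depth is unknown, 23 helicase genes were under 10 FPKM, and the size of difference that 3 libraries a group can detect was not measured.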
